A study of Mus musculus with 3 samples.

Results

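A set of 10 genes of glycolysis and lactate metabolism was followed through the testis: the sperm isoforms Gapdhs, Pgk2 and Ldhc, their somatic partners Gapdh, Pgk1, Ldha and Ldhb, and the enzymes Hk1, Pgam2 and Tpi1. They were chosen by symbol, not by a measured value, though earlier results of these data were known. All 10 were found among the 31053 genes of the count tables. The data were single-cell RNA-seq of testicular cells from C57BL/6 mice, labelled 8 weeks old, in 3 genotypes with 1 library each. Wild type (WT) mice carried the intact gene for GRTH (DDX25), a testis RNA helicase. GRTH-KO (KO) mice lack both the phosphorylated and the non-phosphorylated GRTH protein. GRTH-KI (KI) mice carry a human GRTH gene with an arginine to histidine substitution, which leaves the non-phosphorylated protein but not the phosphorylated form, pGRTH. No treatment separated the groups, the mutations were not restricted to 1 cell type, and in both mutants spermatids do not complete development. With 1 library per genotype, genotype and library cannot be told apart, so no test between genotypes was possible and none is given.

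Glycolysis turns glucose into pyruvate, and lactate dehydrogenase interconverts pyruvate and lactate. Developing germ cells replace several of these enzymes with forms of their own: Pgk2 is an intronless retrocopy of the X-linked Pgk1, which falls silent with the X chromosome in meiosis, Ldhc encodes the sperm lactate dehydrogenase LDH-C4, and Gapdhs encodes a glyceraldehyde-3-phosphate dehydrogenase bound to the fibrous sheath of the sperm tail. Hk1 gives rise to a spermatogenic hexokinase from its own start sites, whereas Pgam2 (the muscle phosphoglycerate mutase) and Tpi1 (triosephosphate isomerase) serve both body tissues and germ cells. Sertoli cells feed lactate to the germ cells, which take it up through monocarboxylate transporters.

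On the mouse genome GRCm38, Ldha (chr7:46841475-46855627, plus strand) and Ldhc (chr7:46861203-46878142, plus strand) are neighbours 5575 bases apart. Gapdhs lies elsewhere on the same chromosome (chr7:30729775-30743681, minus strand). Pgk2 is a single-exon gene (chr17:40207015-40208640, minus strand), and Pgk1 (chrX:106187100-106203699, plus strand) has up to 11 annotated exons. Gapdh (chr6:125161715-125166467), Tpi1 (chr6:124810586-124814296) and Ldhb (chr6:142490249-142507957) share chromosome 6 and the minus strand. Hk1 (chr10:62268855-62379908) and Pgam2 (chr11:5801640-5803733) are also on the minus strand. Named pseudogene copies, 2 for Gapdh, 3 for Pgk1, 2 for Ldha and 6 for Tpi1, make the counts of these 4 genes less certain, since reads shared with a copy could be lost.

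The promoters are shown because the cAMP response element TGACGTCA is the binding site of CREM, an activator of spermatid genes, and the members' levels below differ by stage. RefSeq (GRCm38.p6) gave 14 windows of 250 bases ending before an annotated start for the 10 members. TGACGTCA, its short form TGACGT (which the longer one contains) and the variant TGACATCA were searched on both strands. Capitals mark the matches, and TGACATCA is TGATGTCA when read from the other strand. The letters searched were chosen after the windows had been read, so the matches are a description only. The inner Gapdhs window and the Ldha window lie within the annotated span of their genes, and the ends of the Ldhc and Pgk2 windows reach into theirs.
Gapdhs, upstream start, chr7:30743682-30743931, minus strand: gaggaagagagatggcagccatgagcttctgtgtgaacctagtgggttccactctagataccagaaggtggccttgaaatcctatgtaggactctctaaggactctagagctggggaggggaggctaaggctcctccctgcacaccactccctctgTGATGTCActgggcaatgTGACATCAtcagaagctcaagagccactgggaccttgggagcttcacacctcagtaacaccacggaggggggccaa
Gapdhs, inner start, chr7:30739408-30739657, minus strand: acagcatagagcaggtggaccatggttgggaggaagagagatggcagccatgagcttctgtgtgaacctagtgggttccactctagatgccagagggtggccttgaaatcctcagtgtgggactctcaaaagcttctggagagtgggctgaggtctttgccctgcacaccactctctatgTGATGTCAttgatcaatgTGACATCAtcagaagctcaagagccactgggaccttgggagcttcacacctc
Hk1, upstream start, chr10:62379909-62380158, minus strand: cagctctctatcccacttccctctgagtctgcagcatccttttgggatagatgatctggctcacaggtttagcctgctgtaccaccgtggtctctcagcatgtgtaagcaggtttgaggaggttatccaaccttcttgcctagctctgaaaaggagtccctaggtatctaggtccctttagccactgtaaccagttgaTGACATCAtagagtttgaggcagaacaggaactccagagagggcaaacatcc
Ldha, chr7:46845554-46845803, plus strand: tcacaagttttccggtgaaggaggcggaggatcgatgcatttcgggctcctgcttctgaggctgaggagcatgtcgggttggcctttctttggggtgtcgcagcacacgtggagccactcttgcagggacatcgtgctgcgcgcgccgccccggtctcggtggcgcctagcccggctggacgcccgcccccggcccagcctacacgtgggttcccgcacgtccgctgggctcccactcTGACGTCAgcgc
Ldhc, chr7:46861013-46861262, plus strand: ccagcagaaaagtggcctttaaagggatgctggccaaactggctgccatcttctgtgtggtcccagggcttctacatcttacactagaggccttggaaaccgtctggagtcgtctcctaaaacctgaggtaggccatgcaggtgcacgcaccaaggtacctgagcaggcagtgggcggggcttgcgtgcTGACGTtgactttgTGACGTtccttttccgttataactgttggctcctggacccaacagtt
Pgk2, chr17:40208610-40208859, minus strand: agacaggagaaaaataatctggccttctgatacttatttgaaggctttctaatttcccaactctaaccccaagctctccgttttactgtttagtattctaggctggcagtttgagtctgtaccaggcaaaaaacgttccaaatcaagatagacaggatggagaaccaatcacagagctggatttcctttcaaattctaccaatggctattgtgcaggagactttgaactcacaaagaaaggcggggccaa

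Both Gapdhs windows held 2 copies of TGACATCA, 94 and 76 bases before the upstream start and 70 and 52 bases before the inner one. The upstream Hk1 window held 1 copy, 52 bases before the start, and the Pgam2 window held 1 copy, 225 bases before it. This 8-base variant occurred in 2.93% of 32817 windows of the same length across the genome. The Ldha window held the full TGACGTCA 12 bases before its start, found in 1.55% of all windows. Ldhc held the 6-base TGACGT 61 and 47 bases before its start, found in 6.46% of all windows. None of the 3 letter strings was in the second RefSeq windows of Ldha, Ldhc and Hk1, which are not shown, or in the windows of Pgk2, Gapdh, Pgk1, Ldhb or Tpi1, and 3′ counts cannot tell which start a transcript used.

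Cells were called from the deposited tables of all barcodes, and cells of over 500 genes whose mitochondrial UMIs stayed under 10% were kept. This left 5855 WT cells, 4065 KO cells and 1571 KI cells. Libraries held 73150373 to 91388296 UMIs (distinct molecules counted), of which 56.4 to 67.9% were in called cells, so RNA outside cells was abundant in each. The WT library stood apart in its median mitochondrial share of 0.0584%, against 1.64% in KO and 1.32% in KI. The kept cells of WT shared 16 barcodes with KO and 36 with KI, KO and KI shared 8, and leaving them out did not move the counts of called members in SP-like or RS-like cells given below by over 1.5 times. Ddx25, the targeted gene, was counted at 155 CPM (UMIs of a gene scaled to a common total for every sum of cells) in round spermatid-like cells of WT, 0.137 in KO and 121 in KI, and at 217, 0.336 and 89.2 CPM in spermatocyte-like cells.

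Clusters were named by summed markers, with the glycolysis genes left out of the clustering. They gave an early prophase spermatocyte-like class (EP, leptotene and zygotene; 110, 133 and 77 cells in WT, KO and KI), a spermatocyte-like class (SP, pachytene to division; 424, 621 and 256 cells), a round spermatid-like class (RS; 1857, 1582 and 640 cells) and an elongating spermatid-like class (ES; 2280, 409 and 141 cells). Somatic cells were few: 194, 263 and 88 Sertoli-like cells and 15, 21 and 20 Leydig-like cells. In Sertoli-like cells the summed SP markers were 14810, 14554 and 14488 CPM in WT, KO and KI. The Sertoli markers summed to 2366, 2314 and 3169 CPM there, so the class also carried much germ cell RNA. Clusters with mitochondrial or haemoglobin genes, and no marker of their best class, among their 10 leading genes (930, 946 and 281 cells) were left unnamed. The cluster with haemoglobin (567, 302 and 182 cells) scored 0.74 for SP markers and 0.16 for EP markers. The larger SP-like cluster scored 0.48 and 0.38. No cluster was named spermatogonial. The EP-like cluster scored 2.62 for its own markers and 2.06 for the spermatogonial ones, and Dazl and Ncl were among its 10 leading genes with none of the EP markers. The summed SP markers were 13304 CPM in RS-like cells of WT against 14156 CPM in SP-like cells, so the SP and RS classes were not parted by that list. Of the WT ES-like cells, 51.4% lay in the latest cluster, which held 9 KO cells and 1 KI cell. The summed RS markers were 695 CPM in WT ES-like cells but 6262 in KO and 5749 in KI, above the 5871 and 5497 CPM of the RS-like cells of the same libraries, so the mutant cells called ES-like carried RS markers at a level that the WT ones did not. Without integration, 401 KO and 142 KI cells formed a cluster with 1 WT cell that no class led, and the clusters then named ES-like held 1271 and 1013 WT cells and at most 4 cells of either mutant.

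In all 3 libraries the lactate dehydrogenases Ldhc and Ldha were at their highest in SP-like cells, and Gapdhs, Pgk2 and, in WT, Hk1 were at their highest in ES-like cells. Ldhc stood at 7211 CPM in SP-like cells of WT, 7621 in KO and 7383 in KI. In EP-like cells it stood at 600, 1059 and 395 CPM, several times lower in each library. Free RNA, as the empty profile scaled to the protamine and transition protein UMIs of these cells, would give 766, 424 and 113 CPM there, more than was counted in WT. In RS-like cells it was lower, at 6026, 6237 and 6281 CPM, and in ES-like cells of WT it was 2092 CPM. The exact 95% Poisson intervals, which cover counting error only, did not overlap between these 4 stages within any library.

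Ldha is the muscle and general body form of lactate dehydrogenase, yet its level followed that of Ldhc. It stood at 1006, 1035 and 991 CPM in SP-like cells of WT, KO and KI. EP-like cells held 70.5, 129 and 46.6 CPM, and RS-like cells 567, 620 and 667 CPM. WT ES-like cells held 99.3 CPM. SP-like cells exceeded Leydig-like cells (61.2, 106 and 144 CPM) and Sertoli-like cells (656, 829 and 710 CPM) in every library, so Ldha was not confined to somatic cells. The Sertoli-like level was above that of RS-like cells, with overlapping intervals in KI. The empty profile scaled to the protamine and transition protein UMIs of Sertoli-like cells would give 363, 263 and 142 CPM of it. Ldha was 9.39, 11.3 and 9.93% of Ldha and Ldhc UMIs in Sertoli-like cells, and 7.14, 8.28 and 7.52% in empty barcodes. How much of the Sertoli-like Ldha came from germ cell RNA was not tested.

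Pgam2, which converts 3-phosphoglycerate to 2-phosphoglycerate, stood at 120 CPM in EP-like cells of WT and 173 in KO, and was lower in KI on 74 UMIs (interval 39.3 to 62.8 CPM). SP-like cells held 1265, 1338 and 1189 CPM. Over RS-like cells the level was much the same, at 1222, 1267 and 1291 CPM. In ES-like cells it was 1226, 962 and 917 CPM, so in WT the SP, RS and ES stages lay close together. Its body form Pgam1 was nearly absent from the pair by then: Pgam2 made up 74.6, 81.0 and 49.7% of Pgam1 and Pgam2 UMIs in EP-like cells and from 98.91 to 99.02% in SP-like cells. The scaled empty profile alone would give 140 CPM of Pgam2 in EP-like cells of WT, more than was counted, and 77.3 CPM in KO and 20.03 in KI.

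**Figure D1:**
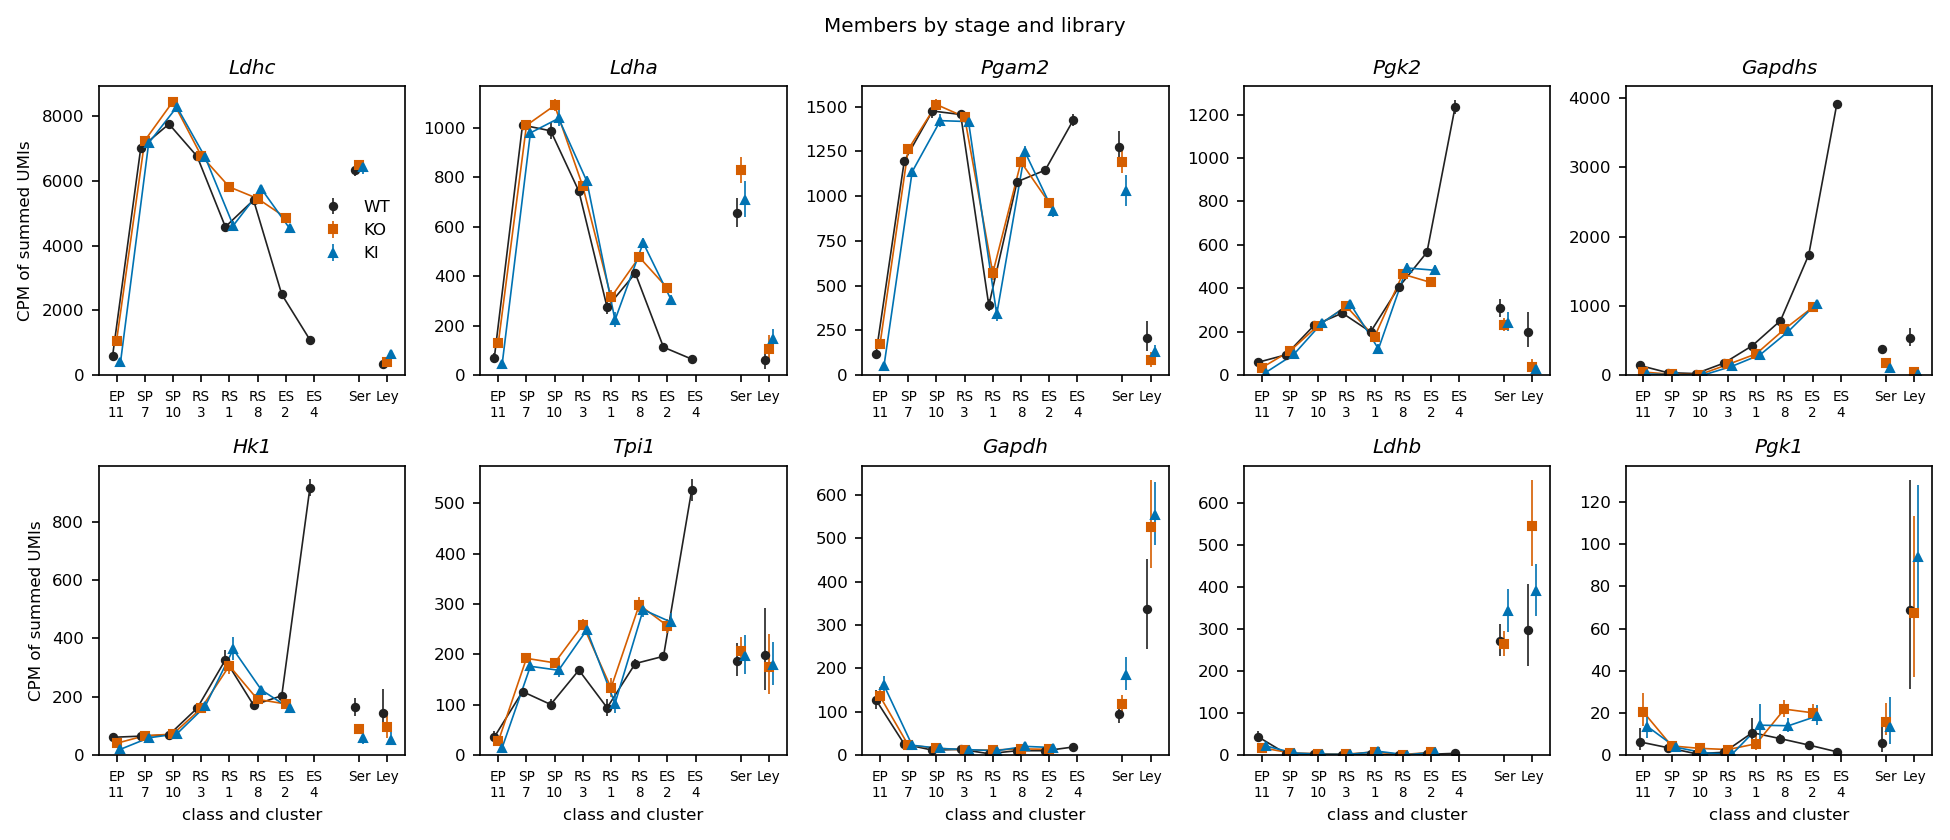
Level of each of the 10 members (CPM, axis from 0) in germ cell clusters ordered from EP-like through SP-like and RS-like to ES-like cells, and in Sertoli-like (Ser) and Leydig-like (Ley) cells, with 1 colour for each of WT, KO and KI and exact Poisson intervals as bars. The figures under the class names are cluster numbers. Ldhc, Ldha and Pgam2 are already high in SP-like cells, Pgk2 and Gapdhs are highest in ES-like cells, and sums under 100000 UMIs are not drawn, so the last cluster shows WT only.

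Pgk2, the retrocopy that makes phosphoglycerate kinase once the X chromosome is silent, was at 58.9, 34.2 and 12.2 CPM in EP-like cells and 128, 147 and 123 CPM in SP-like cells of WT, KO and KI. It was higher in RS-like cells, at 333, 353 and 370 CPM. ES-like cells held 759, 429 and 485 CPM, the highest class in each library. In WT, the latest ES-like cluster held 1236 CPM against 566 CPM in the earlier one.

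Gapdhs was lowest in SP-like cells and highest in ES-like cells in each library. EP-like cells held 141, 45.1 and 16.2 CPM in WT, KO and KI, of which the scaled empty profile would give 87.2, 27.4 and 9.73 CPM. SP-like cells of WT, KO and KI held 32.7, 10.6 and 4.88 CPM. RS-like cells held 461, 344 and 305 CPM, and ES-like cells 2364, 981 and 1043 CPM. Within RS-like cells of WT the 3 clusters, ordered by their summed ES markers, held 175, 425 and 787 CPM. The KO clusters held 155, 308 and 664 CPM and the KI clusters 128, 295 and 632 CPM, the same order in each. The ES markers include Akap4, whose pattern was like that of Gapdhs (Pearson r = 0.98), so nothing is read from this order.

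Hk1, which phosphorylates glucose at the entry to glycolysis, stood at 65.7, 67.8 and 61.3 CPM in SP-like cells of WT, KO and KI. RS-like cells held 176, 185 and 198 CPM. ES-like cells held 409, 175 and 162 CPM. In WT this came from the latest ES-like cluster, with 917 CPM against 203 CPM in the earlier one. In KO the RS-like and ES-like levels overlapped within their intervals.

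The middle of the 3 RS-like clusters broke the smooth course of several members. Its cells were shallow, with medians of 1258, 1461.5 and 2040.5 UMIs in WT, KO and KI. Pgam2 was at 389, 570 and 340 CPM there, against 1456, 1442 and 1416 CPM in the cluster before it and 1080, 1191 and 1247 CPM in the one after. Hk1 went the other way, at 326, 306 and 362 CPM, above both neighbours in each library. Ldha, Pgk2 and Tpi1 dipped there as Pgam2 did, Gapdhs did not, and the part of the low depth in these values was not tested.

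Tpi1, which interconverts the 2 triose phosphates, was also lowest in EP-like cells. EP-like cells held 35.7, 26.9 and 14.9 CPM, SP-like cells 120, 189 and 175 CPM, and RS-like cells 170, 259 and 252 CPM in WT, KO and KI. ES-like cells held 291, 259 and 264 CPM, and in both mutants the intervals of RS-like and ES-like cells overlapped.

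The somatic forms Gapdh, Pgk1 and Ldhb were low in SP-like and RS-like cells. Gapdh stood at 337, 526 and 554 CPM in the few Leydig-like cells of WT, KO and KI and at 93.9, 118 and 185 CPM in Sertoli-like cells. EP-like cells held 127, 135 and 161 CPM, within counting error of Sertoli-like cells, and SP-like cells held 21.6, 20.7 and 21.1 CPM. The EP-like cells also carried Sertoli markers, as given below. RS-like cells held 10.96, 12.4 and 14.6 CPM. Gapdh was thus lower in SP-like than in EP-like cells in all 3 libraries, where Ldhc, Ldha and Pgam2 were higher.

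Ldhb, the heart-type subunit that favours lactate as substrate, was highest in Leydig-like and Sertoli-like cells. Sertoli-like cells held 272, 265 and 342 CPM and Leydig-like cells 298, 546 and 390 CPM in WT, KO and KI. EP-like cells held 43.7, 17.5 and 21.6 CPM and RS-like cells 0.633, 2.19 and 1.62 CPM. The few macrophage-like cells held 0, 9 and 3 Ldhb UMIs, too few to place them. Thinned to 2000 UMIs a cell, 35.9, 46.3 and 64.7% of the WT, KO and KI Sertoli-like cells had an Ldhb UMI (51.6, 56.7 and 68.2% unthinned, at medians of 1488, 1436 and 1296 UMIs). In RS-like cells, which should lack it, 0.373, 0.582 and 0.789% of thinned cells had 1 (0.646, 1.33 and 2.03% unthinned, at medians of 9486, 4399 and 19888.5 UMIs). Only 78, 95 and 34 Sertoli-like cells were deep enough to be thinned.

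Pgk1, the body form of phosphoglycerate kinase, stood at 2.77, 3.95 and 3.19 CPM in SP-like cells of WT, KO and KI. RS-like cells held 4.73, 9.40 and 5.69 CPM. Leydig-like cells held 68.9, 67.6 and 93.9 CPM. EP-like cells, named for stages before the X chromosome is silent, held 6.25, 20.4 and 13.5 CPM on 7, 28 and 20 UMIs.

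Ldhc was also counted in Sertoli-like cells, at a level near that of barcodes without cells. It stood at 6331, 6486 and 6440 CPM in Sertoli-like cells of WT, KO and KI, against 6595, 7072 and 6782 CPM in the empty barcodes. Scaled to the protamine and transition protein UMIs of Sertoli-like cells, the empty profile would give 4719, 2914 and 1745 CPM, less than was counted. Ldhb was 272, 265 and 342 CPM there against 6.79, 7.16 and 7.57 CPM in the empty barcodes, and Gapdh 93.9, 118 and 185 CPM against 13.2, 14.5 and 16.8 CPM, so both stood above the empty profile. Gapdhs was below it in Sertoli-like cells, at 376, 178 and 102 CPM against 751, 456 and 583 CPM. The sperm-form levels of the Sertoli-like class were read no further.

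The shares of the isoforms within a family compare genes counted in the same cells, with each captured transcript giving 1 UMI whatever its length. Gapdh, Pgk1 and Ldha have named pseudogene copies, and Gapdhs, Pgk2 and Ldhc do not. Reads lost to those copies would raise the shares of the sperm forms, and this was not tested. Ldhc was 84.0, 87.9 and 85.3% of Ldha, Ldhb and Ldhc UMIs in EP-like cells of WT, KO and KI, 87.7, 88.0 and 88.1% in SP-like cells and 91.4, 90.9 and 90.4% in RS-like cells. Its share in SP-like cells was the same in the 3 libraries to within 1 percentage point. The EP-like shares include the free Ldhc given above. In WT it reached 95.4% (exact Clopper-Pearson 95% interval 95.2 to 95.6%) in ES-like cells, where Ldha was low.

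Pgk2 was 97.9% of Pgk1 and Pgk2 UMIs in SP-like cells of WT (interval 97.1 to 98.5%), 97.4% in KO and 97.5% in KI. In EP-like cells it was 90.4% on 73 UMIs, 62.7% on 75 and 47.4% on 38, with intervals from 81.2 to 96.1%, 50.7 to 73.6% and 31.0 to 64.2%. The scaled empty profile would give 46.8, 22.5 and 6.97 CPM of the 58.9, 34.2 and 12.2 CPM of Pgk2 counted in EP-like cells. The scaling takes every protamine and transition protein UMI as free RNA, which was not tested, and it exceeds the Ldhc and Pgam2 counted in WT. The RS-like shares were 98.6, 97.4 and 98.5%. By this measure the change of phosphoglycerate kinase isoform was complete to within a few percent in SP-like cells.

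In the classes named here, Gapdhs took the greater part of its pair in every library only from RS-like cells on. In RS-like cells it was 97.7, 96.5 and 95.4% of the UMIs of both genes in WT, KO and KI. In EP-like cells it was 52.7% in WT, 62 of 248 UMIs in KO and 9.16% in KI. With the cells of highest doublet score removed, the EP-like shares were 25.7, 23.3 and 9.16%. They were 30.0, 11.7 and 3.88% with the empty profile subtracted, and 67.7, 66.3 and 53.8% with cells gated on markers. In SP-like cells Gapdhs was 60.2% (interval 56.5 to 63.8%), 33.9% (30.5 to 37.4%) and 18.8% (15.6 to 22.3%). These SP-like shares moved with the way cells were grouped. They were 81.7, 72.5 and 71.2% with cells gated on markers, and 76.7, 58.5 and 42.4% without integration. At Leiden resolution 0.6 they were 84.0, 56.2 and 46.2%. The unnamed cluster with haemoglobin among its leading genes held 94.1, 76.7 and 52.8%, with free RNA not subtracted. The free RNA of the same libraries was itself rich in Gapdhs, at 98.3, 96.9 and 97.2% of the pair in empty barcodes, and when the empty profile was subtracted the SP-like shares were 16.7, 16.6 and 8.73%. Lactate dehydrogenase and phosphoglycerate kinase UMIs were thus mostly of the sperm form by SP-like cells in all 3 libraries. Glyceraldehyde-3-phosphate dehydrogenase UMIs were so by RS-like cells in the classes named here, and already in EP-like and SP-like cells with the marker gate.

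**Figure D2:**
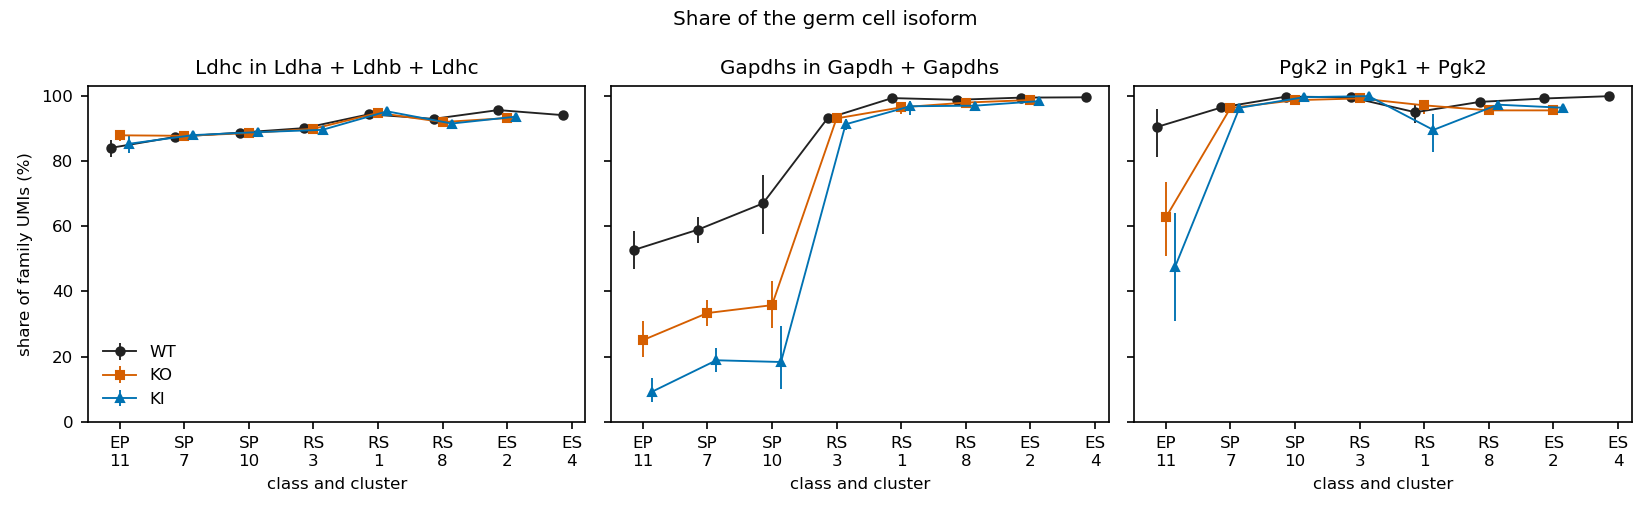
Share of the sperm isoform in the UMIs of its family (percent, axis from 0) for Ldhc, Pgk2 and Gapdhs across the germ cell clusters in stage order, 1 line per library with exact Clopper-Pearson intervals. Ldhc is above 80% in every cluster drawn and Pgk2 from the first SP-like cluster on. Gapdhs is at 60.2, 33.9 and 18.8% over all SP-like cells of WT, KO and KI and above 95% over all RS-like cells. In the first RS-like cluster it is at 93.1, 93.1 and 91.2%.

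Against WT, most members were within a narrow range in SP-like cells of both mutants, and Tpi1 lay above it. Gapdhs lay below it as counted, but in KO its log2 ratio was -0.07 with the empty profile subtracted. Log2 ratios were taken after adding 1 CPM, and a gene was called when it differed by at least 2-fold among genes of mean 10 CPM or more. KO and KI were set against the same WT library, so their ratios are not independent. Of the 10 members 8 passed this filter in SP-like cells, Pgk1 and Ldhb being too low. Gapdhs alone was called, lower in both mutants, where 0.493% of 7706 genes were called lower in KO and 0.934% in KI. It passed the filter through its WT level (32.7 CPM, against 10.6 in KO and 4.88 in KI), so nothing is read from the call itself. No member was called higher, against 0.117 and 0.156% of genes. In both mutants at once 0.428% of genes were called lower and 0.0389% higher. Gapdhs was not called with cells gated on markers (log2 ratios of -0.63 in KO and -0.95 in KI) or with the empty profile subtracted. The median log2 ratio of the 8 members was 0.06 in KO and -0.04 in KI, beside -0.04 and 0.01 over all genes.

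Tpi1 was at 120 CPM in SP-like cells of WT (1601 UMIs), 189 in KO (4511 UMIs) and 175 in KI (3621 UMIs), with both mutants above WT. This was 1.58-fold in KO and 1.46-fold in KI, log2 ratios of 0.66 (interval 0.58 to 0.74) and 0.54 (0.46 to 0.63). In 0.247% of the genes tested the smaller of the KO and KI ratios was at least the smaller one of Tpi1. In RS-like cells Tpi1 was at 170, 259 and 252 CPM, log2 ratios of 0.61 (0.54 to 0.68) in KO and 0.57 (0.50 to 0.64) in KI. With cells gated on markers the RS-like ratios were 0.40 in KO and 0.22 in KI.

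The median log2 ratio over all genes tested in RS-like cells was itself above 0, at 0.19 in KO and 0.20 in KI. Relative to that median the Tpi1 ratios were 0.42 and 0.37, and in 11.3% of 8522 genes the smaller of both ratios was at least the smaller one of Tpi1. Cluster by cluster the sign was the same. In the 2 SP-like clusters the KO ratios of Tpi1 were 0.60 and 0.86 and the KI ratios 0.48 and 0.74. In the 3 RS-like clusters they were 0.61, 0.50 and 0.71 in KO and 0.56, 0.12 and 0.66 in KI. The value of 0.12 rested on 94 UMIs and its interval, from -0.27 to 0.52, spanned 0.

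The Tpi1 difference was also seen outside cells. The empty barcodes held 160, 243 and 237 CPM of Tpi1 in WT, KO and KI, a difference of the same direction. Scaled to the protamine and transition protein UMIs found in SP-like cells, that free RNA amounted to 6.04, 3.48 and 1.16 CPM of the 120, 189 and 175 CPM counted. In EP-like cells Tpi1 was lower in the mutants, at 35.7, 26.9 and 14.9 CPM on 40, 37 and 22 UMIs in WT, KO and KI, of which the scaled empty profile would give 18.5, 14.6 and 3.95 CPM. The KO ratio of -0.39 had an interval from -1.05 to 0.27. The part of reads shared with the 6 Tpi1 pseudogenes was not tested.

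**Figure D3:**
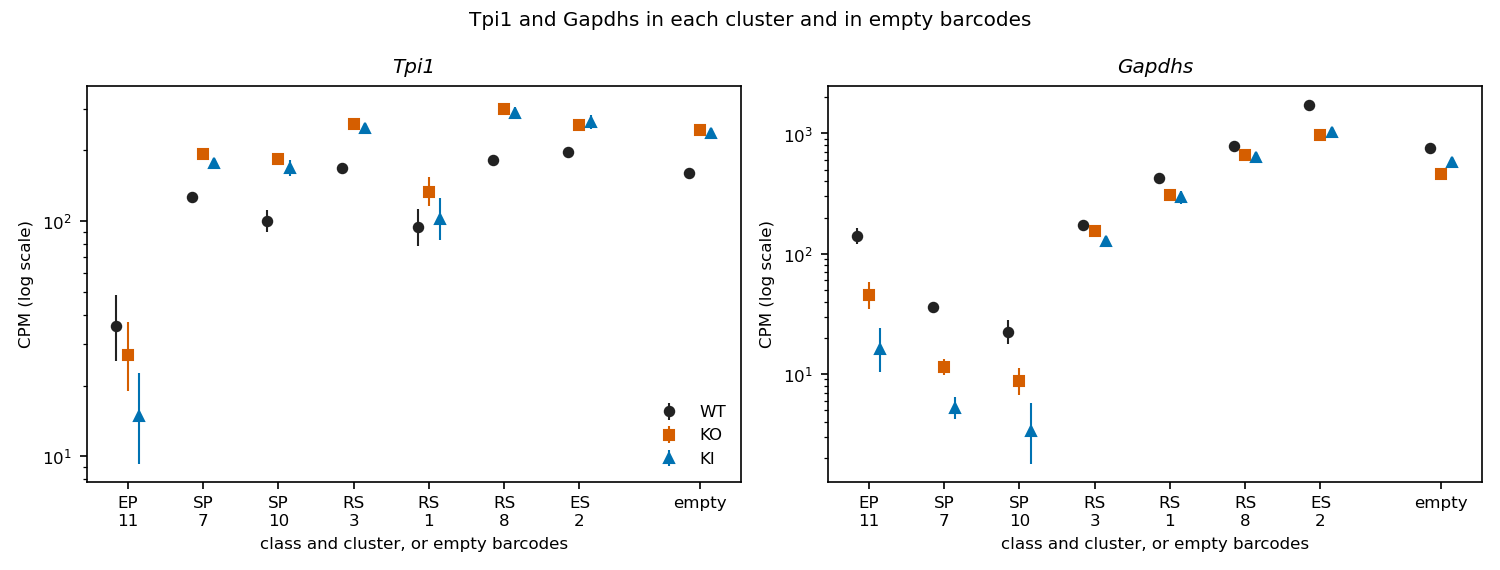
Tpi1 and Gapdhs levels (CPM, log axis) in each germ cell cluster from EP-like to the earlier ES-like cluster, and in empty barcodes, with points for WT, KO and KI and exact Poisson intervals. Tpi1 is higher in KO and KI than in WT from the first SP-like cluster on, with overlapping intervals for KI in 1 RS-like cluster, and Gapdhs is lower in both mutants in every cluster shown. In empty barcodes Tpi1 was 160, 243 and 237 CPM and Gapdhs 751, 456 and 583 CPM.

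Gapdhs was lower in both mutants than in WT at each stage, but by amounts that moved with the free RNA in the early stages. In SP-like cells the counts behind 32.7, 10.6 and 4.88 CPM were 437, 253 and 101 UMIs. The ratios were 2.90-fold lower in KO, a log2 ratio of -1.53 (interval -1.74 to -1.33), and 5.73-fold lower in KI, a log2 ratio of -2.52 (-2.78 to -2.25). Protamine and transition protein transcripts, which belong to later spermatids, took 0.185, 0.0253 and 0.0118% of the SP-like UMIs in WT, KO and KI. The empty profile scaled to these shares gave 28.4, 6.53 and 2.87 CPM of Gapdhs, most of what was counted in WT. After subtraction the log2 ratios were -0.07 in KO and -0.84 in KI, and neither was called.

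In RS-like cells, where Gapdhs was 461, 344 and 305 CPM in WT, KO and KI, the difference was smaller and rested on 9456, 5013 and 4337 UMIs. The log2 ratios were -0.42 (interval -0.47 to -0.37) in KO and -0.59 (-0.65 to -0.54) in KI, or -0.61 and -0.80 relative to the median of all genes. In 10.7% of the genes tested the larger of the KO and KI ratios was at or below the larger one of Gapdhs. The summed ES markers of RS-like cells were 8470, 5912.5 and 5320 CPM in WT, KO and KI. The latest RS-like cluster held 25.5, 14.5 and 16.6% of the RS-like cells. In the 3 RS-like clusters in stage order the ratios were -0.17, -0.46 and -0.25 in KO and -0.44, -0.53 and -0.32 in KI. Gapdhs was below WT in every one of them. The same clusters also held less of the ES markers in both mutants. Summed, these markers came to 3458, 6722 and 14353 CPM in the WT clusters. KO had 2948, 3805 and 11409 CPM, and KI 2683, 3558 and 10518 CPM. Cells of a cluster were thus not matched for these markers. The part of stage in the Gapdhs ratios was not tested.

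Ldhc and Pgk2 lay near WT over whole classes. Ldhc had log2 ratios of 0.08 (interval 0.07 to 0.09) in KO and 0.03 (0.02 to 0.05) in KI in SP-like cells, and of 0.05 and 0.06 in RS-like cells. The Pgk2 ratios were 0.20 and -0.05 in SP-like cells and 0.08 and 0.15 in RS-like cells. Relative to the shifted median of the RS-like class, Ldhc was at -0.14 in both mutants and Pgk2 at -0.10 and -0.05. In SP-like cells 55.5% of genes had both ratios within 0.2 of 0, so a small ratio was common there, and in RS-like cells 19.9% did. In the shallow middle RS-like cluster the spread was wider: Ldhc was 4585, 5819 and 4624 CPM in WT, KO and KI, with a KO ratio of 0.34 (0.30 to 0.39), and Pgk2 was 199, 176 and 121 CPM, with a KI ratio of -0.72 (-1.05 to -0.39).

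Over whole classes Ldha, Pgam2 and Hk1 lay in the same range. Their SP-like ratios were 0.04, 0.08 and 0.04 in KO and -0.02, -0.09 and -0.10 in KI. The RS-like ratios were 0.13, 0.05 and 0.07 in KO and 0.23, 0.08 and 0.17 in KI, against the all-gene medians of 0.19 and 0.20. The sign of each relative to those medians was negative in 5 of the 6 cases, Ldha in KI being 0.03 above. In the middle RS-like cluster Pgam2 had a ratio of 0.55 (0.39 to 0.71) in KO and -0.20 (-0.40 to 0.01) in KI.

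No member was called in RS-like cells, where 2.28% of genes were called higher and 2.84% lower in KO, and 2.83 and 4.89% in KI (1.62% higher and 2.56% lower in both). The median log2 ratio of the 8 members tested there was 0.08 in KO and 0.16 in KI. Gapdh was at 0.17 in KO and 0.38 (interval 0.13 to 0.65) in KI. Pgk1 and Ldhb, below the filter, had KO ratios of 0.86 (0.52 to 1.22) and 0.97 (0.38 to 1.77) on 137 and 32 UMIs in KO, and KI ratios of 0.23 (-0.14 to 0.61) and 0.68 (0.13 to 1.45).

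**Figure D4:**
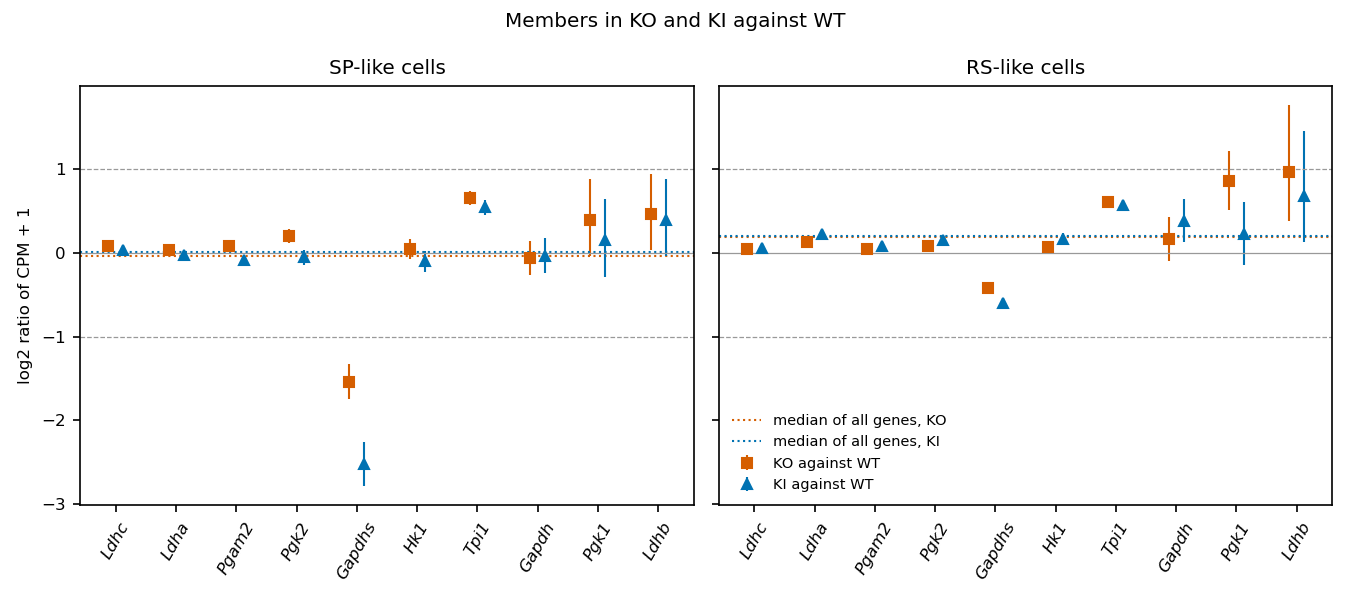
Log2 ratios of KO and KI to WT for the 10 members in SP-like and RS-like cells, with intervals for counting error and dotted lines at the median of all genes tested. Tpi1 lies above and Gapdhs below that median in both classes and both mutants, and Ldhc, Ldha, Pgam2 and Hk1 lie close to it.

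Between the mutants, no member was called in SP-like or RS-like cells, where 0.182 and 0.246% of genes were called higher in KI than in KO and 0.519 and 0.528% lower. The Tpi1 levels of the mutants (259 and 252 CPM in RS-like cells) were closer to each other than to the 170 CPM of WT there.

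ES-like cells cannot be compared like for like. Of the 9 members that passed the filter, Ldha and Ldhc were called higher and Gapdhs and Hk1 lower in both mutants. Pgk1, at 3.81, 19.8 and 18.4 CPM, passed only through the mutants, so nothing is read from its call as higher. However, 60.7% of all genes were called higher in KO and 57.3% in KI, with 4.13 and 3.68% lower (54.3% higher and 2.88% lower in both). Between KI and KO no member was called, against 0.723% of genes higher and 2.47% lower. In the ES-like cluster that all 3 libraries share, Ldhc stood at 2496 CPM in the WT cells, 4873 in the KO cells and 4536 in the KI cells, and Ldha at 113, 352 and 303 CPM. Gapdhs stood at 1735, 980 and 1034 CPM there. The summed ES markers of that cluster were 24464, 16080 and 16747 CPM in the same order, lower in its mutant cells. The RS markers of the class differed as given above, and stage and genotype cannot be told apart.

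EP-like cells were few. All 10 members passed the filter there, Pgk1 only through the mutants, where it was higher (7 UMIs in WT). It was called higher in both mutants, from which nothing is read, with 2.8% of genes called higher in KO and 2.15% in KI. Gapdhs and Ldhb were called lower in KO, where 2.4% of genes were called lower. In KI, Gapdhs, Pgk2, Hk1, Pgam2 and Tpi1 were called lower against 5.68% of genes. In both mutants at once 0.78% of genes were called higher and 1.18% lower. Against KO, KI had no member called higher (1.25% of genes) and Gapdhs, Pgk2, Ldha, Ldhc and Pgam2 called lower (6.51%). The summed ES markers in these cells, which belong to no spermatocyte, were 1610, 650 and 274 CPM in WT, KO and KI, the same order as Gapdhs, Pgk2, Hk1 and Tpi1, and their part in the calls was not tested.

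The wider pathway was read from 37 other genes, among them hexokinases, aldolases, enolases, glucose transporters and monocarboxylate transporters. In SP-like cells 16 passed the filter and none was called in either mutant. In RS-like cells 19 passed, none was called in KO and 1 was called lower in KI, where 4.89% of genes were. This was Gpi1, glucose-6-phosphate isomerase, with 81.2, 52.4 and 35.9 CPM in the order WT, KO and KI, log2 ratios of -0.62 (interval -0.74 to -0.50) and -1.15 (-1.30 to -1.01). It was not called with 10 CPM added, and 1 of 19 is near the background. In ES-like cells 9 of the 19 tested were called higher in both mutants and none lower, with the backgrounds of 60.7 and 57.3% given above.

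Several of these genes followed the stages of the members. Ldhal6b, an intronless lactate dehydrogenase gene, stood at 1379, 1535 and 1466 CPM in SP-like and 1043, 1066 and 1140 CPM in RS-like cells of WT, KO and KI, near the pattern of Ldhc. Slc2a3, the neuron and germ cell glucose transporter, was at 1093, 948 and 1061 CPM in SP-like and 125, 165 and 149 CPM in RS-like cells. Aldoart2, a spermatid aldolase retrocopy, was at 279, 267 and 254 CPM in RS-like cells. Slc2a3, Ldhal6b, Ldha and Ldhc were thus higher in SP-like than in RS-like cells in every library, and Aldoart2, like Gapdhs, was higher in RS-like cells (2.32 to 6.502 CPM in SP-like cells).

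Bsg, the partner protein that carries monocarboxylate transporters to the membrane, was at 614, 680 and 658 CPM in SP-like and 534, 632 and 620 CPM in RS-like cells. Pdha2, the testis form of pyruvate dehydrogenase E1 alpha, was at 216, 256 and 245 CPM in SP-like and 142, 203 and 181 CPM in RS-like cells. Slc16a7, a monocarboxylate transporter, was at 98.2, 111 and 121 CPM in SP-like and 244, 257 and 274 CPM in RS-like cells. The remaining genes at 100 CPM or more in some class were Pfkp, Aldoa, Bpgm, Pkm and Slc2a5, none of them called in SP-like or RS-like cells.

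Patterns across the testis were compared over 37 sums of cluster and library, as a description without a test, since points share libraries and depth. Gapdhs was most like 1700009N14Rik (Pearson r = 0.99), Gm9999 (0.98) and Akap4 (0.98), the last a main protein of the fibrous sheath. Pgk2 was most like Spa17 (0.95), Ankrd60 (0.95) and Dbil5 (0.95). Akap4 and Dbil5 are on the ES marker list used to name and order the clusters. Ldhc was most like Rbakdn, Cetn1 and Cmtm2b (0.98 each). Among the members, Ldhc went with Ldha (0.91) and Pgam2 (0.87) and not with Gapdhs (-0.05). Hk1 was most like Lrrc8b (0.92), Lpin1 (0.91) and Plcz1 (0.88), and Ldhb most like Defb19, Gstm2 (both 0.96) and Aard (0.95), the last of the Sertoli marker list used to name cells.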

How the data were processed

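The authors prepared 10x Genomics 3′ v2 libraries from enzyme-digested seminiferous tubules (7000 cells loaded each) and deposited tables of raw UMI counts for all barcodes, aligned to mm10. The submitters' processing notes name Cell Ranger 2.1.1, and the deposited file headers name version 4. Labels and methods also differ on the sequencer, on the age of the mice and on whether testes of 1 mouse or of pooled mice made a library. Replicates are lacking, so error given here is counting error.

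Cells were called from the counts by UMI total and by difference from the empty-barcode profile (20000 candidates at most, a limit KO reached), then kept at over 500 genes and under 10% mitochondrial UMIs. Libraries were integrated with SCTransform (Seurat 5.3.0, sctransform 0.4.2, R 4.3.3), using 2000 genes without the members and pathway genes, 100 components and Leiden clustering (leidenalg 0.10.2) at resolution 0.3. Clusters were named by summed marker levels with a lead of 0.05 over the next class, a lead set after the clusters and the members' levels were seen. Doublets were not removed from the values given; Scrublet scores (scanpy 1.11.5) were used for an alternative. UMIs were summed per class and library, scaled to CPM, and compared after adding 1 CPM (numpy 2.4.6, scipy 1.17.1, pandas 2.3.3, Python 3.11.15). TMM factors came from edgeR 4.0.16. Plots were made with matplotlib 3.10.9. The scripts were tested on simulated data. The members, pathway and marker lists were chosen with earlier results of these data known. Named genes were all members, pathway genes at a mean of 100 CPM or more in a class, or past 2-fold the same way in both mutants, and the 3 genes most like each of 5 members. Gene names came from the deposited tables, positions from GENCODE on GRCm38.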

Additional observations from a re-analysis of the deposited data

How the results depend on the processing

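No paired analysis was possible because each genotype has 1 library. Ratios over settings and contrasts were taken in SP-like and RS-like cells only, and they reuse the same cells and the same WT library. Tpi1 was above WT in 66 of 66 (log2 0.12 to 0.86) and Gapdhs below WT in 66 of 66 (-2.57 to -0.07). In EP-like and ES-like cells, which are not among them, Tpi1 was lower in both mutants than in WT. In the ES-like cluster that all 3 libraries share, Tpi1 was higher in both mutants than the 196 CPM of WT. Counts of called members, 1 in SP-like cells of KO and of KI (Gapdhs, which passed the filter through WT), were 0 and 0 with cells gated on markers and 0 and 0 with the empty profile subtracted. Members called in KO RS-like cells, 0 as reported, were 1 (Pgk1, higher) with a marker lead of 0.1 or without the earliest RS-like cluster, which for RS-like cells leave out the same cells. Pgk1 was under the filter level in WT there and passed through the mutants, so nothing is read from that call. The share of all genes called was not taken at the other settings. For members and pathway genes together, the count in KO SP-like cells (1) was 0 with the marker gate and 0 with the empty profile subtracted. In KI SP-like cells (1) it was 2 without a filter on low values, 2 without integration, 2 at Leiden resolution 0.6, 0 with the marker gate and 0 with the empty profile subtracted. In KO RS-like cells (0) it was 2 without a filter, 1 without integration, 4 with the marker gate and 3 with a marker lead of 0.1 or without the earliest RS-like cluster. In KI RS-like cells (1) it was 0 with 10 CPM added, 3 without a filter and 3 with the marker gate. The cause was not tested. Of the other values of single genes and shares, 741 moved by less than their counting interval and 342 by more, none with a called value changing sign. TMM scaling gave Tpi1 0.39 in KO and 0.35 in KI in RS-like cells and Gapdhs -0.64 and -0.81. Removing cells that share a barcode, the marker lead of 0.1, leaving out the earliest RS-like cluster and leaving protamine UMIs out of the total were chosen after seeing the data. Averages over cells and cluster by cluster values give no count. The depth of 9486, 4399 and 19888.5 median UMIs in RS-like cells limits Pgk1 and Ldhb, which rest on 13 to 137 UMIs there.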
